A study of Mus musculus with 3 samples.

Results

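AP-1 is a family of dimeric transcription factors that joins a Fos protein to a Jun protein, or a pair of Jun proteins, and binds short sites in promoters and enhancers. Several of its genes, like *Egr1*, *Ier2* and *Ier3*, are immediate early genes. Serum, growth factors, stress or cytokines switch such genes on within minutes through the ERK, JNK and p38 kinases and the serum response factor. In carcinoma cells AP-1 is known for driving proteases, cytokines and motility genes. The 10 genes described here are *Fos*, *Fosb*, *Fosl1*, *Fosl2*, *Jun*, *Junb*, *Jund*, *Egr1*, *Ier2* and *Ier3*, out of 22911 genes named on the array. They were taken by symbol, through the RefSeq accession that the array files give for each probe, and 14 probes read them. Of the 10 genes, 6 had 1 probe and 4 had 2.

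The lines compared were Colon26, a colon adenocarcinoma line of the mouse, its subline LuM1, which is high-metastatic, and its subline NM11, which is low-metastatic. All are labelled as BALB/c and female. None has a stated transgene or treatment, and all were cultured for 3 days in RPMI1640 with serum and antibiotics. The time between the last change of medium and harvest, to which immediate early genes respond, is not given in the sources used here. Each line was read on 1 single-colour array, so nothing below could be checked against replicates or tested. Lines cannot be told apart from their cultures or arrays.

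For the values below, each array's brightness was scaled to its 75th percentile. The error after a signal is that of the scanner software, 10% of it plus a small fixed term, and covers technical error only. Where the spot of 1 line failed the software's test for being well above background, only an approximate lower limit of the ratio can be given, written with "at least". It leaves out the error of the dim spot. Between 49.9% and 53.8% of the 56605 probes were well above background on each array, and no spot was saturated. Of 11 markers of colon epithelium, 3 were well above background in Colon26 and NM11 cells and 4 in LuM1 cells. *Cdh1*, *Krt18*, *Krt19*, *Cdx1*, *Vil1*, *Muc2* and *Lgr5* were so on no array, whereas 5 or 6 of 7 fibroblast markers were. Of 6 macrophage markers, 3 were well above background in Colon26 and NM11 cells and 4 in LuM1 cells. *Cd68* alone read 172 in Colon26, 5251 in LuM1 and 299 in NM11 cells. The summed signal of the macrophage markers was 5881 in Colon26, 12872 in LuM1 and 5225 in NM11 cells, with the pan-leukocyte marker *Ptprc* and the macrophage marker *Adgre1* at background on every array. The fibroblast markers summed to 66315, 35899 and 105802 in the same order, but *Col1a2* carried most of this in Colon26 and NM11 cells, and without it, a split made after seeing the values, the sums were 6419, 35849 and 20527. *Dcn* was at least 1040-fold and *Pdgfra* 18.2-fold above Colon26 in LuM1 cells, whereas *Pdgfrb* differed by log2 -0.04. Among the macrophage markers *Csf1r* differed by log2 0.02, and the probes of *Itgam* gave 0.44 and -1.66. The part of these cells or programs in the results was not tested, and in whole cultures fewer cells of a type and less RNA per cell cannot be told apart.

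The RefSeq promoter table (GRCm38.p6) held 7 of the 10 genes. *Fosl1*, *Ier2* and *Egr1* had no entry. The 250 bases before the start of transcription were searched on both strands for 8 motifs, among them the AP-1 site TGACTCA, the cyclic AMP response element TGACGTCA, the EGR site GCGNGGGCG and the CArG box of the serum response factor. Sequences are shown for *Fos* and *Ier3*, the 2 genes past 2-fold upwards in LuM1 against Colon26, and for *Jun*, *Fosb* and *Fosl2*, where an AP-1 or EGR motif was found. Capitals mark the matches and each sequence ends on the base before the RefSeq start.
Fos (chr12:85473640-85473889, plus strand): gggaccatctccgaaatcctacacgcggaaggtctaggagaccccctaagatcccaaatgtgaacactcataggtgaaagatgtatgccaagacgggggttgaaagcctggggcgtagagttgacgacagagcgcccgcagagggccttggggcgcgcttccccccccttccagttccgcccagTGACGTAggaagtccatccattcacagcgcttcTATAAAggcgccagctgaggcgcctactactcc
Ier3 (chr17:35821463-35821712, plus strand): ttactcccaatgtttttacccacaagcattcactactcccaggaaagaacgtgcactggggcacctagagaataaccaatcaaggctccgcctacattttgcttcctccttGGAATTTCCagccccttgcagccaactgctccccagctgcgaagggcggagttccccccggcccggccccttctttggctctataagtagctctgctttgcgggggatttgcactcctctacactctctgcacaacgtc
Jun (chr4:95052223-95052472, minus strand): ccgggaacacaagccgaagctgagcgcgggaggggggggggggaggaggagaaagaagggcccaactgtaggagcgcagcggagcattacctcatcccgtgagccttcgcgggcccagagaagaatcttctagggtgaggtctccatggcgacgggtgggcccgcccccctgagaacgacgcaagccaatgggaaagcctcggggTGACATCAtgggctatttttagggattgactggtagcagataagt
Fosb (chr7:19310046-19310165, minus strand, last 120 bases): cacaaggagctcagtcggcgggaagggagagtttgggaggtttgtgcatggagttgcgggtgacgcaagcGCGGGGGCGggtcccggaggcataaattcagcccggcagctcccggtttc
Fosl2 (chr5:32136352-32136471, plus strand, last 120 bases): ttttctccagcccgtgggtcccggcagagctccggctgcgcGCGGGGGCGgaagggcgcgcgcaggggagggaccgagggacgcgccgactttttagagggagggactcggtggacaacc

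The capitals in *Jun* are TGACATCA, the AP-1 site through which Jun acts on its own gene, and 2.93% of the 32851 promoters in the table held these letters. Those in *Fosb* and *Fosl2* are the EGR site, which 4.70% of promoters held. In *Fos* they are TGACGTA, a cyclic AMP response element with an altered end (1.08% of promoters), and the TATA box TATAAA (12.4%). In *Ier3*, a known target of NF-kB, they are GGAATTTCC, a kB-type site that 0.286% of promoters held. The motifs marked in *Jun*, *Fos* and *Ier3* were added to the search after the sequences had been read. The AP-1 site, the full cyclic AMP response element and the CArG box, held by 4.46%, 1.55% and 1.47% of promoters, were not in these 7 windows. Bases further upstream were not searched, so these genes may hold such sites there. A match is a description of letters only.

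The AP-1 and immediate early genes did not move together between LuM1 and Colon26 cells. LuM1 cells had at least 2-fold more *Fos* and *Ier3* mRNA, *Fosl1*, *Egr1* and *Ier2* were at least 2-fold lower there, and the other 5 lay within 2-fold. That is 2 of 10 genes higher and 3 lower, against 12.9% higher and 11.7% lower among the 14353 named genes tested. The median log2 ratio of the 10 genes was -0.10, equal to that of all named genes. A scaling by 1 factor per array multiplies all ratios of a comparison alike and keeps the distances between genes. *Ier3* and *Egr1*, the highest and the lowest of the 9 genes measured on both arrays, lay 2.72 apart on the log2 scale, a 6.57-fold difference. The middle 50% of all genes measured on both arrays spanned 0.89. A full range and a middle 50% are not like measures, so these values do not show a wider spread of the 9 genes.

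Between NM11 and Colon26 cells the 9 genes measured on both arrays spanned 1.85 on the log2 scale, and *Fos* stood apart from them. The middle 50% of all genes spanned 0.67, again not a like measure. Only *Fos* passed 2-fold, on the higher side, against 8.17% of 14109 genes tested, and none was at least 2-fold lower, against 7.74%. The median log2 ratio was 0.45 for the 10 genes and -0.01 for all named genes. The other 7 genes above Colon26 were *Fosb*, *Fosl1*, *Fosl2*, *Jun*, *Junb*, *Egr1* and *Ier3*, with log2 ratios between 0.39 and 0.90. Of these, *Fosb*, *Fosl1*, *Egr1* and *Ier3* turned to between -0.10 and -0.03 when scaled to *Hprt*. Between LuM1 and NM11 cells, *Ier3* was at least 2-fold higher in LuM1 cells and *Fos*, *Fosl1* and *Egr1* were at least 2-fold lower, against 11.1% higher and 8.50% lower of 14415 genes. The median log2 ratio was -0.82 for the 10 genes and -0.09 for all named genes. The 3 comparisons share arrays and are not independent of each other.

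**Figure D1:**
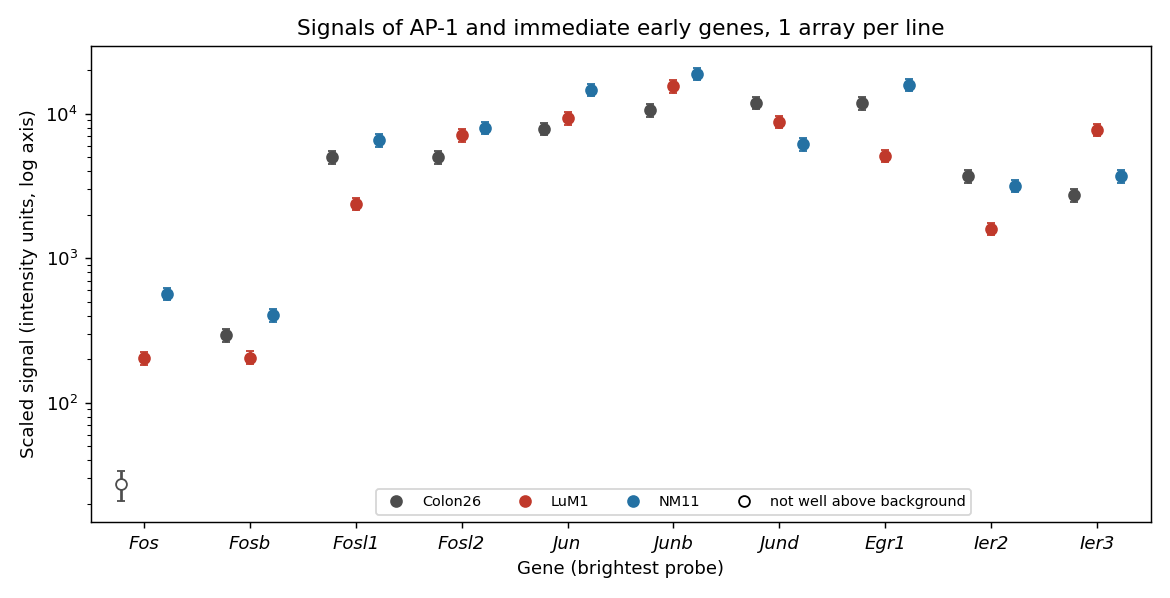
Scaled signal of the brightest probe of each gene on the Colon26, LuM1 and NM11 arrays, on a log axis in intensity units. Points are single arrays, bars the scanner software's error, and the open point is not well above background. *Fosl1*, *Egr1* and *Ier2* have their lowest point in LuM1 cells and *Ier3* its highest, and *Fos* runs from 27.4 in Colon26 to 566 in NM11 cells. Levels should be compared within a gene, since probes differ in brightness.

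Among the Fos proteins, which need a Jun partner to bind DNA, *Fos* itself differed most between the lines. Its probe (A_55_P2910184) gave a scaled signal of 27.4 ± 6.38 in Colon26 cells, where it was above background but not well above it. The signal was 203 ± 20.8 in LuM1 cells and 566 ± 56.7 in NM11 cells, so all 3 lines were apart by more than the error. Taken at the Colon26 reading itself, the *Fos* mRNA level was 7.41-fold higher in LuM1 and 20.6-fold higher in NM11 cells (log2 2.89 and 4.37, scanner error 0.37). Both are approximate bounds set by the dim Colon26 spot. After normexp background correction with an added offset they were log2 1.40 and 2.65, so they are not strict limits. The level in LuM1 cells was below that in NM11 cells, with a ratio of 0.359 (log2 -1.48, scanner error 0.21). Scaled to *Hprt* it was log2 -0.89, which ends the 2-fold call. Of the 12848 genes measured on both of these arrays, 2.79% lay at least as low.

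*Fosb* encodes a Fos protein with a strong activation domain, which a shorter splice form lacks. Its brighter probe (A_55_P2113051) read 293 ± 30.0 in Colon26, 205 ± 21.0 in LuM1 and 402 ± 40.4 in NM11 cells. LuM1 cells thus had the lowest level, with a log2 ratio of -0.52 over Colon26 and of -0.97 over NM11, both beyond the scanner error of 0.21. The ratio over NM11, 0.511, fell just short of 2-fold. The other *Fosb* probe was not well above background on any array and gives no level.

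*Fosl1* encodes Fra-1, a Fos protein without that activation domain that is often linked to invasive carcinoma cells. Its probe (A_51_P308796) read 4991 ± 499 in Colon26, 2377 ± 238 in LuM1 and 6520 ± 652 in NM11 cells. The high-metastatic line had the lowest level, 2.10-fold below Colon26 (log2 -1.07) and 2.74-fold below NM11 cells (log2 -1.46), with a scanner error of 0.20 for each. In NM11 cells the level was 1.31-fold that in Colon26 cells, a direction that turned when scaled to *Hprt* (log2 -0.10). Whether LuM1 passed 2-fold depended on the scaling, since its log2 ratio over Colon26 was -0.62 in the processed values of the authors and that over NM11 was -0.87 when scaled to *Hprt*.

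*Fosl2* encodes Fra-2, the relative of Fra-1, and was higher in both sublines. Its brighter probe (A_55_P2803815) read 5013 ± 501 in Colon26, 7092 ± 709 in LuM1 and 8004 ± 800 in NM11 cells. The log2 ratios over Colon26 were 0.50 and 0.67, beyond the scanner error of 0.20. The dimmer probe gave 0.50 and 0.59. LuM1 and NM11 cells differed by less than the scanner error, with a log2 ratio of -0.17 that took the other sign under 5 of 7 other scalings and background corrections.

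The Jun proteins can pair with each other as well as with Fos proteins. *Jun*, the most active of them, read 7850 ± 785 in Colon26, 9258 ± 926 in LuM1 and 14673 ± 1470 in NM11 cells (probe A_55_P2158990). The level in NM11 cells was 1.87-fold that in Colon26 cells (log2 0.90, scanner error 0.20). That in LuM1 cells was 1.18-fold, a log2 ratio of 0.24 that barely exceeded the scanner error. LuM1 cells thus lay below NM11 cells, with a ratio of 0.631 (log2 -0.66), which shrank to -0.08 when scaled to *Hprt*.

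*Junb*, which in many settings restrains what Jun does, was higher in both sublines. Its brighter probe (A_51_P159194) read 10602 ± 1060 in Colon26, 15462 ± 1550 in LuM1 and 18917 ± 1890 in NM11 cells. The level was 1.46-fold that of Colon26 in LuM1 cells and 1.78-fold in NM11 cells, and the dimmer probe gave 1.62-fold and 1.85-fold. The log2 ratio of LuM1 over NM11 was -0.29 and turned positive under 4 scalings, the highest being 0.30 when scaled to *Hprt*.

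*Jund*, the Jun gene that is also active in resting cells, was below Colon26 in both sublines, while *Jun* and *Junb* were above it. The brighter of its probes (A_55_P2892246) read 11873 ± 1190 in Colon26, 8799 ± 880 in LuM1 and 6145 ± 615 in NM11 cells, and the other probe read 11314, 9177 and 6175. The log2 ratio over Colon26 was -0.95 in NM11 cells, a ratio of 0.518 just short of 2-fold, and it passed 2-fold without scaling and with *Hprt* or the E1A spike-ins as the reference. In LuM1 cells it was -0.43, and this was 0.01 in the processed values of the authors. *Jun* and *Jund* thus stood 1.85 apart on the log2 scale between NM11 and Colon26 cells, a gap that a factor per array cannot change.

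*Egr1* encodes a zinc finger factor that binds GC-rich sites of the kind searched for above. Its probe (A_51_P367866) read 11765 ± 1180 in Colon26, 5098 ± 510 in LuM1 and 15829 ± 1580 in NM11 cells. LuM1 cells had the lowest level, 2.31-fold below Colon26 (log2 -1.21) and 3.10-fold below NM11 cells (log2 -1.63). Of the genes measured on both arrays, 6.47% lay at least as low against Colon26 and 2.22% against NM11 cells. The ratio over NM11 stayed past 2-fold under all 7 other scalings and background corrections, the smallest being log2 -1.05 when scaled to *Hprt*. The ratio over Colon26 came down to -0.76 in the processed values of the authors.

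*Ier2*, a nuclear protein of the immediate early response, read 3690 ± 369 in Colon26, 1601 ± 160 in LuM1 and 3179 ± 318 in NM11 cells (probe A_51_P481325). Its level in LuM1 cells was 2.30-fold below that in Colon26 cells (log2 -1.20, scanner error 0.20), but by log2 -0.76, short of 2-fold, in the processed values of the authors. Against NM11 cells it was 1.99-fold lower, just short of 2-fold. NM11 and Colon26 cells differed by a log2 ratio of -0.21, hardly beyond the scanner error.

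*Ier3*, also called IEX-1, is induced by stress and cytokines and acts on cell survival. It ran the other way, with 2717 ± 272 in Colon26, 7740 ± 774 in LuM1 and 3686 ± 369 in NM11 cells (probe A_51_P286488). LuM1 cells exceeded Colon26 cells 2.85-fold (log2 1.51) and NM11 cells 2.10-fold (log2 1.07). Of the genes measured on both arrays, 5.24% lay at least as high against Colon26 and 7.67% against NM11 cells. It stayed at least 2-fold higher than in both other lines under all 7 other scalings and background corrections. The GGAATTTCC letters, found in no other of the 7 promoters, were added to the search after the *Ier3* sequence had been read. Any link between them and its level was not tested.

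**Figure D2:**
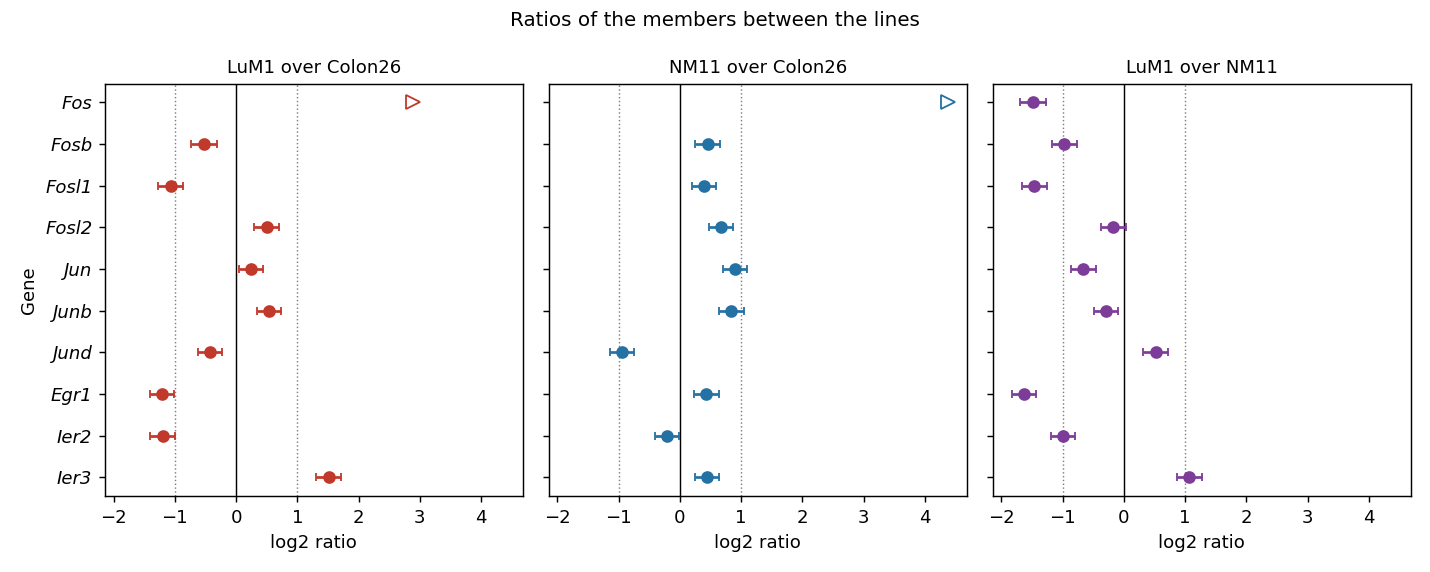
Log2 ratio of each gene between pairs of lines, with dotted lines at 2-fold. Circles are ratios with the scanner error as bars, and open triangles are approximate bounds for *Fos*, whose Colon26 spot was not well above background. In LuM1 over Colon26 the genes run from -1.21 for *Egr1* to 1.51 for *Ier3*, and in LuM1 over NM11 8 of the 10 lie below 0, of which *Fosl2* and *Junb* turn sign under other scalings.

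The 3 genes closest to *Fosl1* in the pair of log2 ratios over Colon26 were *Pa2g4*, *Tmem11* and *Slc19a1*, at distances of 0.009 to 0.045. Those closest to *Egr1* were *Lsm11*, *4921524J17Rik* and *Gnb4*, at distances of 0.033 to 0.054. The search covered 12245 genes that all 3 arrays measured. *Fos* could not be placed, because it was not measured in Colon26 cells.

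Other factors that pair with Fos and Jun proteins, or belong to the same leucine zipper class, held a few large differences. Of 14 such genes 13 had a probe, and 9 could be compared between LuM1 and Colon26 cells, with 2 at least 2-fold higher and 1 lower (22.2% and 11.1%, against 12.9% and 11.7% of all named genes). *Atf7* had no named probe, and *Batf* and *Nrl* were not well above background in any line. *Atf3*, a stress-induced partner of Jun, read 1595 in Colon26, 314 in LuM1 and 1787 in NM11 cells. Its level in LuM1 cells was 5.08-fold below that in Colon26 cells and 5.69-fold below that in NM11 cells, the same side as *Egr1* and *Fosl1*. *Batf3*, a factor of dendritic cells and T cells, read 513 in LuM1 cells, 30.9 in NM11 cells and was not well above background in Colon26 cells. This puts LuM1 at least 19.4-fold over Colon26. *Batf2* read 1377 in LuM1, 654 in Colon26 and 344 in NM11 cells. *Maf* was well above background in NM11 cells alone, with a signal of 261, at least 9.89-fold over Colon26. It was at least 13.0-fold lower in LuM1 cells than there. In NM11 over Colon26, *Maf* was the only one of 10 genes past 2-fold, against 8.17% higher and 7.74% lower of all genes.

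Other immediate early genes differed between the lines in both directions. Of 36 genes 35 had a probe and could be compared between LuM1 and Colon26 cells, and 7 were at least 2-fold higher and 11 lower (20.0% and 31.4%, against 12.9% and 11.7% of all named genes). Under the other scalings and background corrections these counts ran from 6 to 11 and from 7 to 11, and the median log2 ratio ran from -0.16 to 0.28, so it has no settled sign.

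Lowest in LuM1 relative to Colon26 cells among the measured ones were *Sgk1*, *Gadd45b*, *Egr3* and *Ccn1*. *Sgk1*, a serum-inducible kinase, read 6843 in Colon26, 1056 in LuM1 and 2013 in NM11 cells, 6.48-fold lower in LuM1 than in the parental line. *Gadd45b*, a stress gene, read 2229, 369 and 5735, so NM11 cells were the highest. *Egr3*, a relative of *Egr1*, read 348, 84.0 and 472 in the same order, 4.14-fold lower in LuM1 than in the parental line. *Ccn1*, a matricellular protein, read 6641, 1621 and 7161, 4.10-fold lower. All but *Sgk1* shared with *Fosl1* and *Egr1* the order NM11 over Colon26 over LuM1, but scaling to *Hprt* turned the sign of the step from Colon26 to NM11 for *Fosl1*, *Egr1*, *Egr3* (log2 -0.05) and *Ccn1* (-0.38), and left it at 0.87 for *Gadd45b*. *Egr4* was measured only in Colon26 cells, with a signal of 790, which puts LuM1 at least 39.2-fold below it. None of the 24 spots nearest to it on the array showed such a pattern, a check added after its value was seen, against 1.89% of all spots.

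Highest in LuM1 relative to Colon26 cells among those measured on both arrays were *Nfkbiz*, *Arc*, *Klf10* and *Zfp36l1*. *Nfkbiz*, an NF-kB cofactor, read 179 in Colon26, 3651 in LuM1 and 1967 in NM11 cells, log2 4.35 and 3.46 over Colon26, and its other probe gave 3.21 and 2.40. *Arc*, known from neurons, read 94.1, 1297 and 1651, a ratio of 13.8 in LuM1 and 17.6 in NM11 cells. *Klf10*, a gene induced by TGF-beta, read 936, 2537 and 3739. *Zfp36l1* was 2.14-fold higher in LuM1 cells on its brighter probe and log2 0.36 on the dimmer. *Gem* and *Rgs2*, both regulators of G proteins, were too dim for more than a bound in Colon26 cells and at least 43.5-fold and 32.8-fold higher in LuM1 cells.

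In NM11 over Colon26, 11 of 34 of these genes were at least 2-fold higher and 5 lower (32.4% and 14.7%, against 8.17% and 7.74%). Scaling to *Hprt* made this 6 and 6, and took the counts over all named genes from 1153 higher and 1092 lower to 686 and 2727. *Egr2*, another relative of *Egr1*, read 454 in Colon26, 193 in LuM1 and 2646 in NM11 cells. It was thus 5.83-fold higher in NM11 than in Colon26 cells and 13.7-fold lower in LuM1 than in NM11 cells. *Klf2*, *Rhob* and *Dusp2* were between 2.18-fold and 2.36-fold lower in NM11 than in Colon26 cells. In LuM1 over NM11, 1 of 34 genes, *Rgs2* at 24.4-fold, was at least 2-fold higher and 6 were lower (2.94% and 17.6%, against 11.1% and 8.50%). When scaled to *Hprt* these were 5 and 4, and the counts over all named genes went from 1599 and 1225 to 3581 and 498.

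Most kinases and serum response regulators upstream of these genes lay within 2-fold. Of 24 genes, 20 lay within 2-fold between LuM1 and Colon26 cells and 21 between NM11 and Colon26 cells, or 83.3% and 87.5%. Of all named genes with a ratio, 75.1% and 83.8% did, so these shares are near the background. *Srf*, the serum response factor, read 1626 in Colon26, 1185 in LuM1 and 1574 in NM11 cells. *Rps6ka1*, which encodes the ERK-activated kinase RSK1, read 806 in Colon26, 4029 in LuM1 and 1235 in NM11 cells. LuM1 thus had log2 ratios of 2.32 over Colon26 and 1.71 over NM11, and 2.42 and 1.68 on the other probe. *Mapk11*, a p38 kinase, was 2.36-fold higher in LuM1 and 2.09-fold higher in NM11 cells. *Mapk10* and *Mapk13* were measured only in Colon26 cells, at dim signals of 76.6 and 58.4, and at least 2.90-fold lower in both sublines. Of the 24 spots nearest to *Mapk13* on the array, 3 showed the same pattern.

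Textbook targets of AP-1 differed widely, with large ratios upwards for proteases and cytokines and modest ones downwards for others. Of 15 genes, 14 could be compared between LuM1 and Colon26 cells, with 8 at least 2-fold higher and 1 lower (57.1% and 7.14%, against 12.9% and 11.7%). In NM11 cells 7 of 14 tested were at least 2-fold higher and none lower, against 8.17% and 7.74% of all named genes. The 14 include *Mmp9*, which was detected in NM11 cells but has no ratio over Colon26. Scaling to *Hprt* or to the spike-in controls made 1 target lower, and took the count of all genes lower from 1092 to 2727 and 1716. For LuM1 over Colon26 the median of the targets was log2 2.92 with bounds included, and 8 of the 14 lay above 0. Over the 9 genes measured on both arrays it was -0.44, but this leaves out the 5 genes with bounds, all of them higher in LuM1 cells. In LuM1 over NM11, where all 14 were measured on both arrays, 6 were at least 2-fold higher and 2 lower (42.9% and 14.3%, against 11.1% and 8.50%). Their median log2 ratio was 0.74. Under the other scalings and background corrections these counts ran from 5 to 8 and from 0 to 2. The secreted proteases *Mmp10* and *Plau* read 50.7 and 325 in Colon26, 2708 and 2537 in LuM1, and 369 and 1427 in NM11 cells. The collagenase *Mmp13* read 6283 in LuM1 and 1609 in NM11 cells and was not well above background in Colon26 cells, giving bounds of 233-fold and 59.6-fold. The cytokine *Il6* was likewise dim in Colon26 cells, and at least 181-fold and 74.6-fold higher in LuM1 and NM11 cells. *Mmp3*, *Ccl2*, *Mmp1b* and *Mmp9* made up the rest of the 8 in LuM1 cells, and *Mmp9*, at 24.7 in NM11 cells, lay under the lowest detectable Colon26 signal of 26.4 and has no ratio there. Macrophages and fibroblasts are known to express several of these genes. Of their markers, *Cd68*, *Dcn*, *Pdgfra*, *Col3a1* (3.98-fold) and *Lyz2* (at least 4.24-fold) were also higher in LuM1 than in Colon26 cells. *Csf1r* and *Pdgfrb* were level, the probes of *Itgam* disagreed, *Col1a1* was 2.19-fold lower and *Col1a2* was far lower. The part of such cells in the result was not tested.

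Several other targets on the same list read lowest in LuM1 cells, while *Spp1*, a secreted matrix protein, read lowest in NM11 cells (163622, 137353 and 87300 in Colon26, LuM1 and NM11). *Cd44*, a hyaluronan receptor, read 6953 in Colon26, 3317 in LuM1 and 9723 in NM11 cells, a ratio of 0.477 and 0.341 in LuM1 over Colon26 and NM11. Its 3 probes gave log2 ratios over Colon26 between -1.63 and -0.31. *Cd44* was the 1 target past 2-fold downwards, and it no longer passed without scaling, with *Hprt*, after quantile normalization or in the processed values of the authors. *Ccnd1*, the cyclin of G1 phase, had a ratio of 0.524 over Colon26, and *Plaur* one of 0.637. *Timp1* read 33767, 24826 and 67183 in Colon26, LuM1 and NM11 cells, 2.71-fold lower in LuM1 than in NM11 cells, but its log2 ratio of LuM1 over Colon26, -0.44, was 0.00 in the processed values of the authors.

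**Figure D3:**
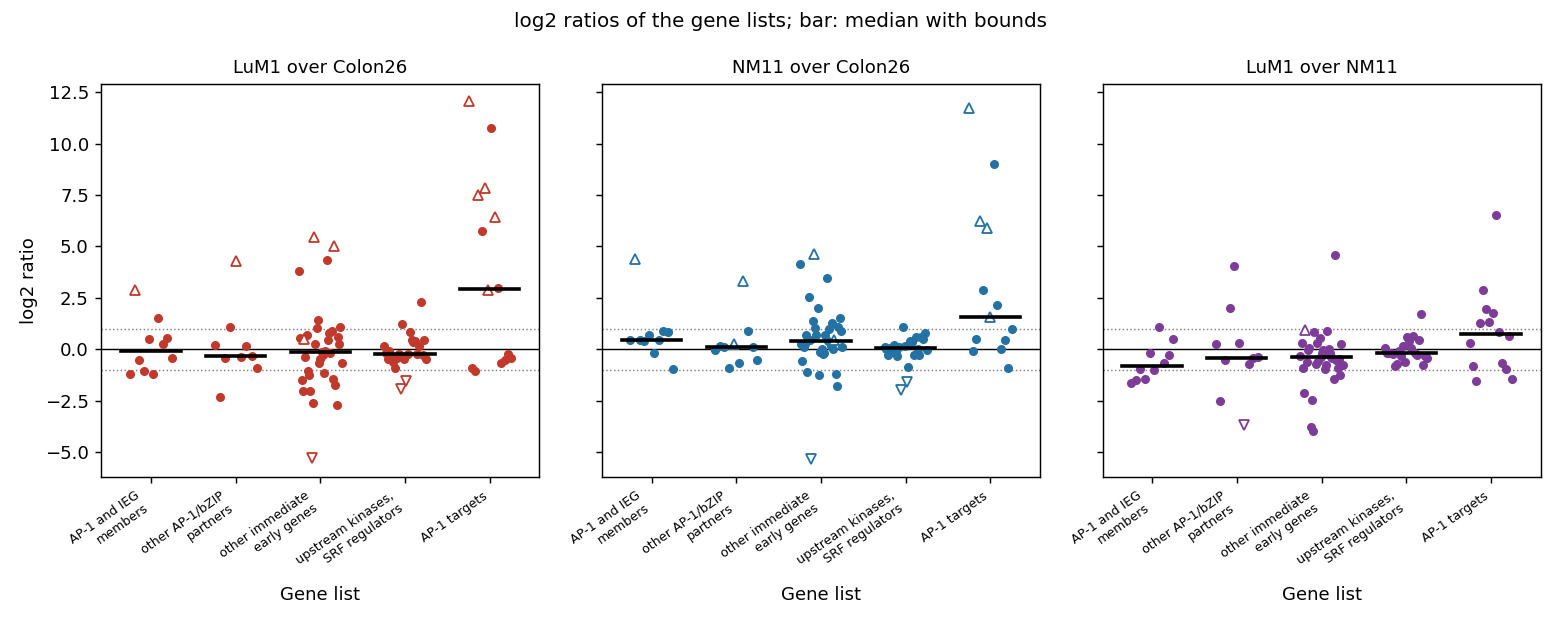
Log2 ratio of each gene of the 5 lists between pairs of lines, with a bar at the median of the list and dotted lines at 2-fold. Circles are measured ratios and open triangles bounds. The AP-1 targets spread upwards in both sublines relative to Colon26, with a median of 2.92 in LuM1 cells (-0.44 without the bounds), whereas the 10 AP-1 and immediate early genes lie on both sides of 0, with a median of -0.10 there.

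The scalings by 1 factor per array moved all genes measured in a comparison alike. Quantile normalization and normexp did not, and in LuM1 over NM11 quantile normalization took *Fosb* from -0.97 to -1.08 and *Junb* from -0.29 to 0.02.

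**Figure D4:**
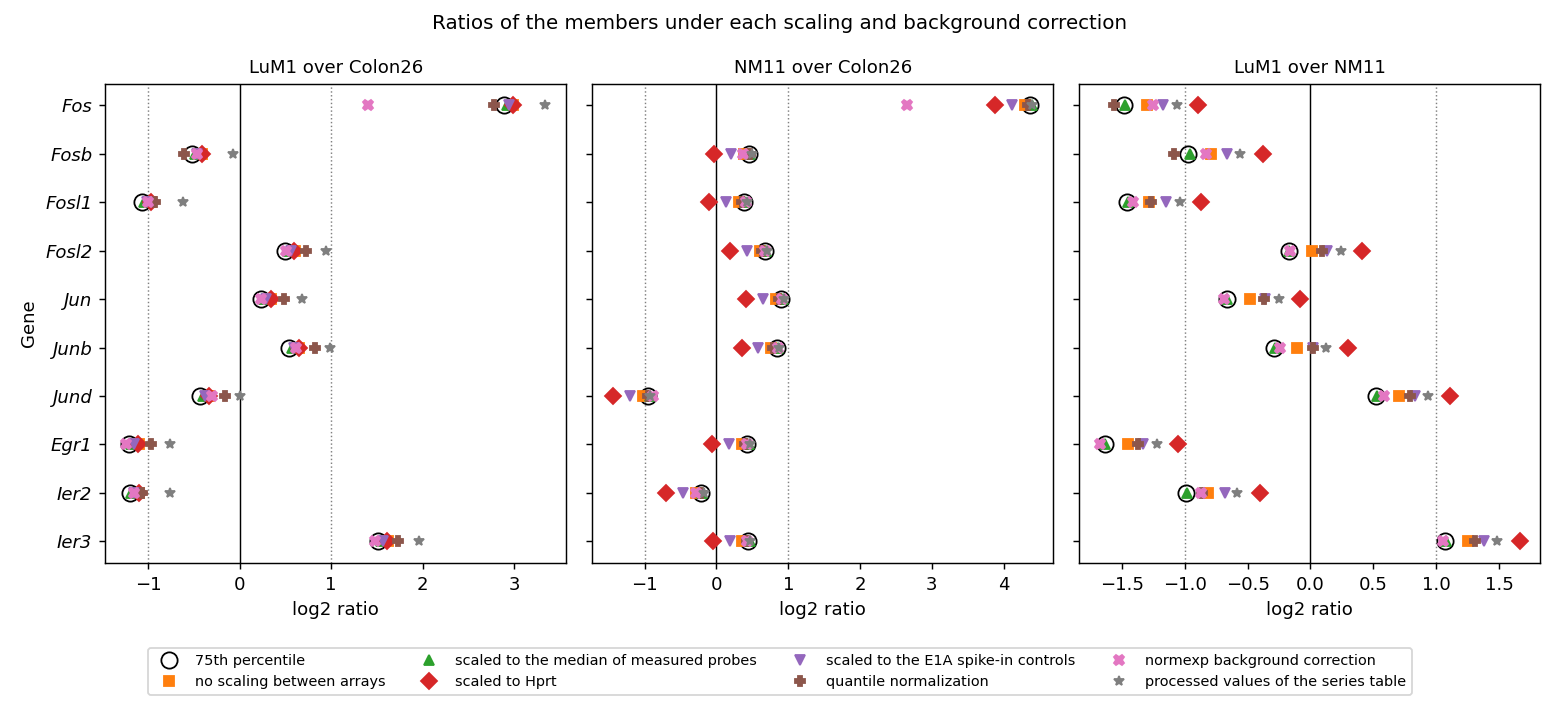
Log2 ratio of each AP-1 and immediate early gene between pairs of lines under the 75th percentile scaling (open circles) and 7 other scalings or background corrections (other symbols), with dotted lines at 2-fold. *Ier3* lies above 1 in both LuM1 panels under every one shown, and *Egr1* lies below -1 in LuM1 over NM11 under every one shown.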

How the data were processed

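Total RNA (0.1 µg) of 3 cell lines was labelled with Cy3 and hybridized to 1 array each. The authors deposited spot intensity values made with Agilent Feature Extraction 11.5.1.1 (named in the submitters' processing notes), background-subtracted and detrended but not scaled between arrays, with flags of 0 or 1 (other values) for outliers and detection. They also deposited a table of processed intensity values, equal to the scanner values times 0.654, 0.829 and 0.706 for Colon26, LuM1 and NM11.

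Control spots and outliers (74 to 137 per array) were left out, spots of a probe were averaged on the log2 scale, and each array was scaled from its 75th percentile (551.5 to 625.1) to 585.1. RefSeq accessions (GRCm38.p6 table) named 32994 of 56605 probes (58.3%), and the brightest probe stood for a gene. For a bound, the dim side was the larger of the probe's signal and the array's dimmest detected signal (19.6 to 26.4). Genes passing 2-fold were counted. Precision is limited by having 1 array per line. The ratio code was tested on simulated data.

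The genes, lists and motifs were chosen with earlier results of these data known. The text names every member, and from each list up to 4 genes per direction and comparison by size of the measured ratio, then those with bounds. *Srf*, *Ccnd1* and *Plaur*, like 4 of the 8 motifs, were picked after their values were seen, and *Spp1* is likewise named outside this rule. Of the 13 alternatives, 7 were scalings or background corrections. The normexp correction used an offset of 50. Python 3.11.15 (numpy 2.4.6, pandas 2.3.3, scipy 1.17.1, matplotlib 3.10.9) and R 4.3.3 with limma 3.58.1 were used.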

Additional observations from a re-analysis of the deposited data

How the results depend on the processing

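The counts of members past 2-fold were 2 higher and 3 lower in LuM1 over Colon26, 1 and 0 in NM11 over Colon26, and 1 and 3 in LuM1 over NM11. In LuM1 over Colon26 the lower count was 2 without scaling, with *Hprt* as the reference and after normexp. It was 1 after quantile normalization and 0 in the processed values of the authors. In NM11 over Colon26 the lower count was 1 without scaling, with *Hprt* and with the E1A spike-ins as the reference, each time *Jund*. Scaling to *Hprt* gave 2 higher and 1 lower in LuM1 over NM11. At a 4-fold threshold LuM1 over Colon26 had 1 higher and 0 lower, against 848 and 538 of 14353 genes tested. LuM1 over NM11 had 0 of each at that threshold, against 657 and 352 of 14415. At 1.5-fold NM11 over Colon26 had 4 higher and 1 lower, against 2180 and 2361 of 14109 genes. LuM1 over NM11 had 1 higher and 6 lower at 1.5-fold, against 2759 and 2953 of 14415. *Fos* and *Ier3* stayed past 2-fold in LuM1 over Colon26 under every scaling and background correction. No ratio past 2-fold changed sign. Of 330 log2 ratios under the alternatives, 256 moved by less than the scanner error and 74 by more. The median of all measured genes shifted most, by 0.59 in LuM1 over NM11 and -0.49 in NM11 over Colon26 when scaled to *Hprt* and by 0.45 in LuM1 over Colon26 in the processed values, and the share of all called genes that were higher went from 56.6% to 87.8%, from 51.4% to 20.1% and from 52.5% to 77.7%. In LuM1 over NM11 this share was also 68.6% without scaling, 76.4% with the spike-ins and 81.4% in the processed values, and in NM11 over Colon26 33.2% with the spike-ins. The counts of all genes higher and lower, 1854 and 1679, 1153 and 1092, and 1599 and 1225 in the order of the comparisons above, moved most to 3037 and 874 in the processed values, and to 686 and 2727 and to 3581 and 498 when scaled to *Hprt*. With no filter on dim probes they were 2581 and 2716, 1811 and 2188, and 2306 and 1843, and after normexp 1327 and 1279, 808 and 635, and 1014 and 871. No paired analysis was possible because each line has 1 array, and leaving out an array leaves no comparison. The signal of *Fos* in Colon26 cells, near background, limits its ratios over Colon26 to approximate bounds.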
